A study of Mus musculus with 4 samples.

Results

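The mRNAs of 10 genes that set the lifetime of inflammatory transcripts were followed in mouse Th17 cells, helper T cells that make IL-17, after a CRISPR guide against Adarb1. ADAR2, the product of Adarb1, converts adenosine into inosine within double-stranded RNA. The genes were chosen by name as the Regnase, Roquin, tristetraprolin (TTP) and AU-element binding protein genes, and 10 of 10 had a single row among the 55450 genes of the authors' deposited table. RNA came from 4 cultures of CD4 T cells of Cas9-transgenic mice aged 8 to 12 weeks, 2 given a PSIN retrovirus with the guide (sgAdarb1) and 2 the empty PSIN vector, with 1 culture of each kind from each of 2 donor mice. Before transduction the T cells of all cultures received anti-CD3 at 0.25 µg/mL with anti-CD28 at 1 µg/mL over 24 h. Polarization took a further 72 h in TGF-β (0.3 ng/mL) with IL-6 (20 ng/mL). The control vector carried no guide, so both the Cas9 cut and the guide itself differ between the groups.

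The table gives 1 fold change per gene and a mean over all 4 libraries. It has no value that the sample labels tie to a culture, so levels per culture and depths per library are not shown. A positive fold change stands for more mRNA with the guide, following the order in which the series' design text names the groups. The numerator is not named in the table, and if it were the other way round every sign below would turn. The treatment tag contradicts the sample title for 2 of the 4 cultures. Which libraries the authors placed in which group could not be checked. If they followed that tag, the fold changes compare the replicates and not the vectors. T cell genes were present at high means (6 of 6 markers, from 4682 to 15286 normalized counts per the authors' deposited table). Th17 markers were present too, 8 of 8 at means from 611 to 3789 per the authors' deposited table. Of these, 5 of 6 T cell and 6 of 8 Th17 markers were positive (medians 0.08 and 0.09). The positive share among genes whose mean was at least 10 was 50.5%. At an unadjusted p below 0.05 were 0 of the T cell and 2 of the Th17 markers, Il17a and Il17f, against 0.412% of those genes. Markers listed for other cells had lower sums, 2291 normalized counts for 5 B cell markers and 1700 for 6 CD8 T and NK cell markers. The sum was 109 for 8 mast cell and basophil markers, with none of these markers at 0, per the authors' deposited table. The largest B cell marker was Ighm at 1308. Of the CD8 T and NK cell markers, Prf1 was largest at 1004, while Ncr1 and Klrb1c lay at 1.24 and 6.57, per the authors' deposited table. Whether these mRNAs came from other cells was not tested. Of 9 myeloid and dendritic cell markers, none was at 0 and 6 had a mean of at least 10. The 9 had a summed mean of 140 normalized counts per the authors' deposited table, against 47591 for the T cell markers. The 6 markers were all on the positive side, with a median log2 fold change of 0.89, 0 of them with an unadjusted p below 0.05, per the authors' deposited table. Of the mast cell and basophil markers, 2 had a mean of at least 10. An unadjusted p below 0.05 was found for 1 of the 2, against 0.412% of all genes at that minimum mean. The 2 were Cpa3 at -5.66 ± 1.26 (unadjusted p = 7.23e-06, DESeq2) and Kit at 0.03 ± 0.54, per the authors' deposited table. The Cpa3 value was the lowest of all 29383 genes with a fold change. Cma1, at a mean of 8.20, lay at -4.70 ± 1.98 (unadjusted p = 0.0177, DESeq2), per the authors' deposited table. B cell markers were positive in 1 of 5, and CD8 T and NK cell markers in 2 of the 4 with a mean of at least 10. The part of other cell types in the values below was not tested.

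Short-lived messenger RNAs of cytokines and other inflammatory genes carry AU-rich elements or small stem-loops in the 3′ untranslated region (3′ UTR). Regnase-1 is a nuclease that cuts stem-loop mRNAs, Roquins bind similar stem-loops, and the TTP family binds AU-rich elements. Roquins and TTP proteins recruit the CCR4-NOT complex, which removes the poly(A) tail. HuR and Arid5a act in the other direction and stabilize bound transcripts. In T cells Regnase-1 and the Roquins restrain activation and the Th17 programme, and Arid5a is known for opposing Regnase-1 on Il6 and Stat3 mRNA.

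Several of these regulators carry the same elements in their own mRNAs. The searched motifs were the pentamer ATTTA, the heptamer TATTTAT and the nonamer TTATTTATT, each on the mRNA strand, where the longer ones contain the shorter and overlapping matches were counted separately. In the longest annotated 3′ UTR, 6 of the 10 genes held the nonamer. Among 11890 protein-coding genes with an annotated 3′ UTR and a mean of at least 10, 8.30% held it. The median 3′ UTR of those genes had 1186 bases, while the regulators ranged from 774 to 7181 bases, and longer sequences hold more matches. The first nonamer of each regulator is printed below because it shows the shared element, with the nonamer in capitals and 30 bases in all from GENCODE M21 transcripts on mm10. For comparison, the lines for Tnf, Il2 and Csf2 show the element in target cytokine mRNAs.

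Zfp36, minus strand, chr7:28376950-28376979: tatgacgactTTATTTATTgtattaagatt

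Zfp36l1, minus strand, chr12:80108166-80108195: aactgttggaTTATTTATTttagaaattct

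Zfp36l2, minus strand, chr17:84184913-84184942: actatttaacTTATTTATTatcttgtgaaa

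Rc3h1, plus strand, chr1:160970043-160970072: actttactcaTTATTTATTgagatgaggag

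Rc3h2, minus strand, chr2:37373286-37373315: caaagacattTTATTTATTttactctgtaa

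Elavl1, minus strand, chr8:4285787-4285816: gtcatgaaaaTTATTTATTTATTTATTtat

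Tnf, minus strand, chr17:35199688-35199717: tttgcacttaTTATTTATTATTTATTTATT

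Il2, minus strand, chr3:37120897-37120926: ttatctgaaaTTATTTATTatattgaattg

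Csf2, minus strand, chr11:54247328-54247357: ttttaaatatTTATTTATTTATTTATTtat

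All 3 TTP family genes held 1 nonamer and 3 heptamers each. Zfp36 had the shortest 3′ UTR of the regulators at 774 bases and held 3 pentamers, as many as its heptamers. Zfp36l1 held 9 pentamers in 1835 bases and Zfp36l2 held 5 in 1822 bases. Rc3h1 and Rc3h2 held 20 and 25 pentamers in 7181 and 5331 bases, with 1 nonamer each. Elavl1 held 8 overlapping nonamers in 4218 bases, and the printed stretch shows 3 of them in a run like that of Csf2. Zc3h12a, Zc3h12d, Khsrp and Arid5a held 3, 2, 1 and 2 pentamers and no heptamer. A match is a stretch of letters and not a shown binding site. With the 3′ UTR of the principal transcript, 6 of 10 held the nonamer as well.

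**Figure D1:**
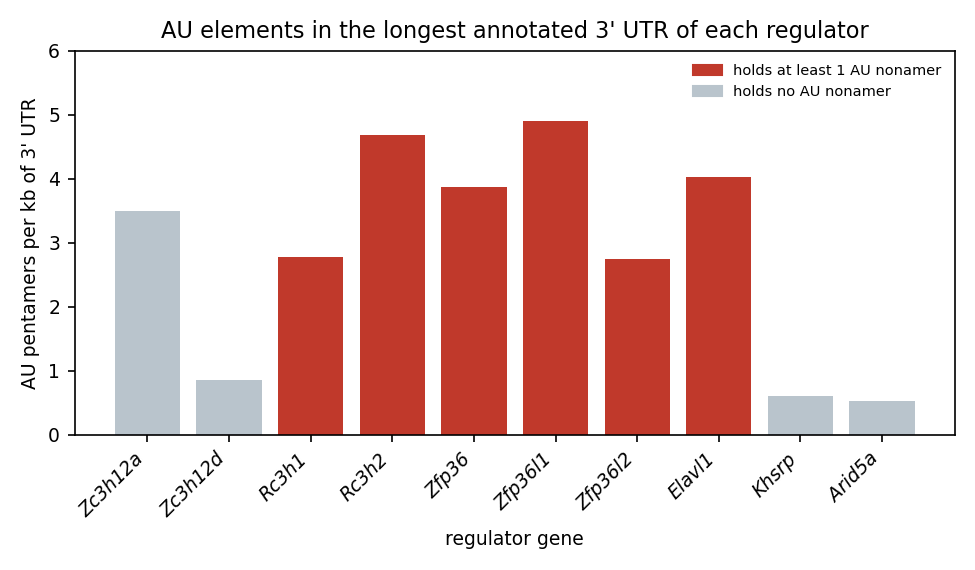
Number of AU pentamers per kb of the longest annotated 3′ UTR for each of the 10 regulator genes, with bars in red for genes that also hold at least 1 nonamer. Zfp36l1 stands highest at 4.90 per kb and Arid5a lowest at 0.52 per kb, and Zc3h12a reaches 3.50 per kb without a nonamer.

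The comparison asked whether the mRNA of any regulator differed between cells given the Adarb1 guide and cells given the empty vector. None did by the test. Of the 10 genes 0 had an adjusted p below 0.05 per the authors' deposited table (DESeq2), against 0% of the 29383 genes with a fold change. At an unadjusted p below 0.05 there were also 0 of 10, against 0.208% of those genes, and this background is too low for a list of 10 to stand apart by having none. Fitted ratios ran from 0.949 for Elavl1 to 1.11 for Zfp36l1 per the authors' deposited table. The 95% interval was taken as the log2 fold change ± its normal limits from the deposited standard error (SE). It included 0 for 10 of 10 genes, against 14487 of the 14547 genes whose mean was at least 10. It lay inside -1 to 1 on the log2 scale, a 2-fold change in either direction, for 10 of 10 genes, against 87.9% of the 10680 genes whose mean was at least 50. It lay inside -0.5 to 0.5 for 9 of 10, against 54.2% of those genes, and Zfp36 was the exception. The width follows the mean count, and all 10 regulators had a mean of at least 495. A calibrated test with no differences would put a share of 0.05 of genes below an unadjusted p of 0.05. The 0.208% seen was far lower. Over genes whose mean was at least 50, fold change over SE had a robust spread of 0.563, against 1 for such a test. The deposited SEs were thus wide for the scatter of the fold changes, and so are the intervals. On the positive side were 6 of 10, against 50.5% of the genes whose mean was at least 10, and the median was 0.03 against 0.00 over those genes.

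Among the Regnases, Zc3h12a (chromosome 4, 125118423 to 125127840, minus strand, mm10) encodes Regnase-1, the nuclease that cuts Il6, Icos and Rel mRNA. Its mean was 495 normalized counts, the lowest of the 10, and its log2 fold change was 0.08 ± 0.21 (SE) per the authors' deposited table. The 95% interval from -0.33 to 0.49 allows ratios between 0.795 and 1.40. Zc3h12d (chromosome 10, 7832470 to 7870396, plus strand) encodes Regnase-4, a relative of Regnase-1 found in lymphocytes. It had a mean of 3541 and lay at 0.05 ± 0.10 per the authors' deposited table, with an interval from -0.15 to 0.26. The interval of Zc3h12a was the widest of the 10 and that of Zc3h12d among the narrower ones.

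Roquin-1 and Roquin-2 are RNA-binding ubiquitin ligase family proteins that act redundantly in T cells. Rc3h1 (chromosome 1, 160906418 to 160974978, plus strand), which encodes Roquin-1, had a mean of 2519 and a log2 fold change of -0.02 ± 0.11 per the authors' deposited table. Rc3h2 (chromosome 2, 37370069 to 37422903, minus strand), which encodes Roquin-2, had a mean of 1193 and lay at 0.02 ± 0.15 per the authors' deposited table. The intervals were -0.24 to 0.20 for Rc3h1 and -0.27 to 0.31 for Rc3h2. Unadjusted p was 0.875 for Rc3h1 and 0.900 for Rc3h2 per the authors' deposited table. When the dependence of fold changes on GC content and length was taken out, the value for Rc3h1 turned to 0.048 and that for Rc3h2 became 0.096. The same step gave 0.023 for Zc3h12a.

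The TTP family recruits the deadenylase to AU-rich mRNAs, and Zfp36 is induced by activating signals. Zfp36 (chromosome 7, 28376784 to 28380253, minus strand), which encodes TTP itself, had a mean of 558 and a log2 fold change of 0.12 ± 0.20 per the authors' deposited table. Its interval ran from -0.27 to 0.50, or ratios between 0.831 and 1.42. Zfp36l1 (chromosome 12, 80107754 to 80113013, minus strand) had the smallest unadjusted p of the 10 regulators, 0.363, with 0.15 ± 0.16 at a mean of 845 per the authors' deposited table. Its interval was -0.17 to 0.47. Zfp36l2 (chromosome 17, 84183931 to 84187947, minus strand) was the most abundant of the family at a mean of 2267 and lay at -0.03 ± 0.14 per the authors' deposited table. With the GC and length trend removed it lay at -0.068. The family members were on both sides of 0, and the differences between them were not tested. Exons of Gm26669, a non-coding gene on the opposite strand (mean 10.7 per the authors' deposited table), cover 55.9% of the Zfp36l1 exon bases. Whether counting used the strand is not stated, so reads of these genes could be shared or dropped. Antisense genes also overlap 3.60% of the Zfp36 and 2.97% of the Zfp36l2 exon bases. Beyond this family, exons of the opposite-strand gene Ccl25 (mean 143 per the authors' deposited table) cover 1.97% of the Elavl1 exon bases. Those of Gm17949, also on the opposite strand, cover 1.46% of the Khsrp exon bases.

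The remaining 3 bind AU-rich or stem-loop RNA with opposite outcomes. Elavl1 (chromosome 8, 4285382 to 4325413, minus strand) encodes HuR, a stabilizing protein that binds U-rich and AU-rich 3′ UTRs. It had a mean of 3566 and the lowest log2 fold change of the 10, -0.08 ± 0.10, per the authors' deposited table, with an interval from -0.28 to 0.13. With the GC and length trend removed it lay at -0.049. Khsrp (chromosome 17, 57021051 to 57031522, minus strand) encodes KSRP, which promotes decay of AU-rich mRNAs, and lay at 0.05 ± 0.09 at a mean of 5452 per the authors' deposited table. Its interval, -0.14 to 0.23, was the narrowest of the 10. The value for Khsrp turned to -0.0021 with the GC and length trend removed. Arid5a (chromosome 1, 36307733 to 36324029, plus strand), the stabilizing partner that opposes Regnase-1, had a mean of 4454 and lay at -0.01 ± 0.11 per the authors' deposited table, with an interval from -0.22 to 0.20. Its value was -0.043 after the same removal.

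**Figure D2:**
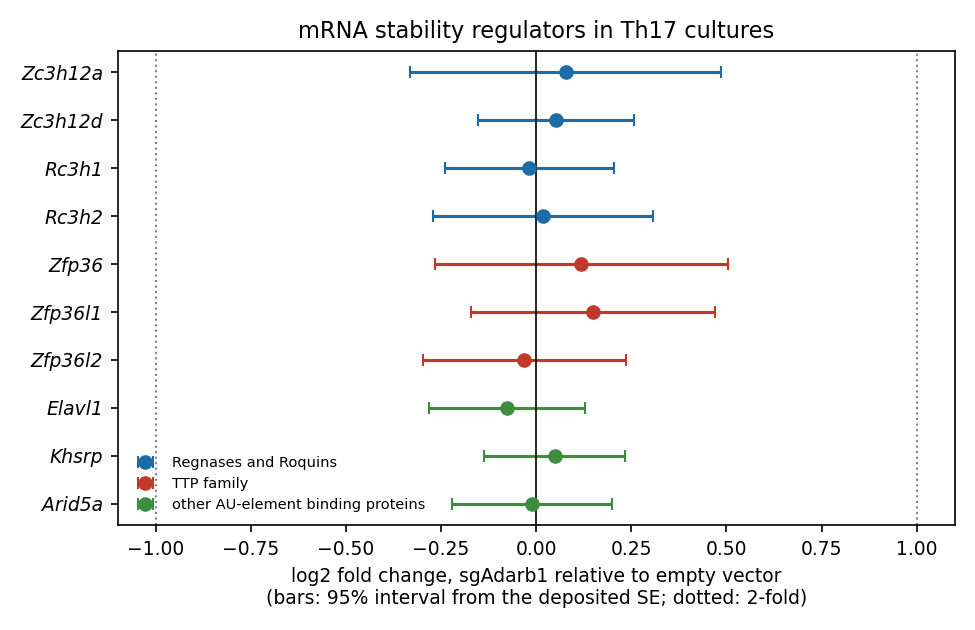
Log2 fold change, sgAdarb1 relative to empty vector, of the 10 regulator mRNAs per the authors' deposited table, with points for the estimate and bars for the 95% interval from its SE. All 10 bars cross 0 and all stay inside the dotted lines at -1 and 1.

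Per kb of merged exons, the scale on which levels of different genes can be set side by side, Khsrp was the most abundant regulator at 1262 normalized counts per kb. Zc3h12d followed at 865 and Zfp36l2 at 642. Arid5a, Elavl1, Zfp36l1 and Rc3h1 lay at 355, 344, 283 and 223 per kb. The lowest were Zc3h12a at 172, Zfp36 at 161 and Rc3h2 at 60.8 per kb. These are means over both groups with no spread over cultures, so the order of neighbours has no error. Per kb of the principal transcript, a length chosen after the data were seen, Arid5a rose to 960, Elavl1 to 621 and Rc3h2 to 136, since their merged exons include long alternative transcripts. Khsrp was still highest at 1370 on that length, and Zc3h12a, Zfp36 and Rc3h2 were still the lowest 3.

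The SE of a fold change in this table reflects both the mean count and the variation between libraries that the authors' model left over. For 8 of the 10 regulators the SE was within 3% of the running median of the 200 genes nearest in mean. The exceptions were Zfp36l2 at 1.17 and Arid5a at 1.09 times that median. None of the 10 reached 2 times the median, against 0.811% of the genes whose mean was at least 10. Among 51 known target mRNAs with such a mean, 6 did. These were Il17f at 5.22 times, Il13 at 4.68, Ccl20 at 4.45, Il22 at 3.47, Lif at 3.04 and Il10 at 2.79 times. Il13 had a mean of 5434 with a log2 fold change of -0.22 ± 0.44, and Lif a mean of 8174 with -0.04 ± 0.27, per the authors' deposited table. Ccl20, a chemokine of Th17 cells, had a mean of only 23.7 with an SE of 3.97 per the authors' deposited table. The excess spread was in secreted cytokine and chemokine mRNAs, and whether it separates donors or groups could not be told without values per culture.

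**Figure D3:**
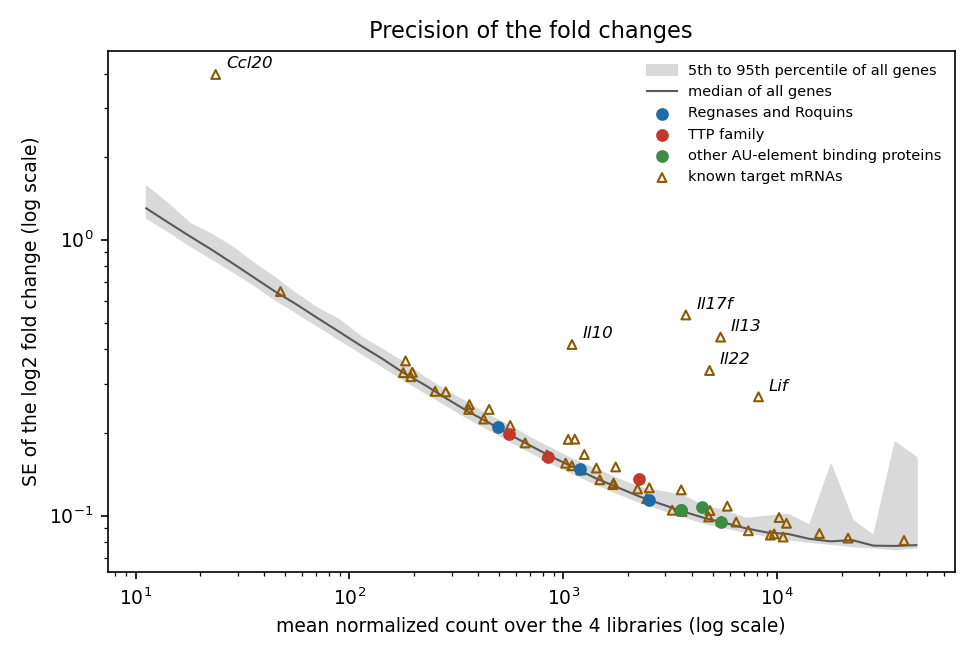
SE of the log2 fold change against the mean normalized count, both on log axes and both from the authors' deposited table, with the grey band and line for all genes, filled circles for the 10 regulators and open triangles for known target mRNAs. The regulators lie on or near the line, and the 6 named targets lie at least 2 times above it.

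Target mRNAs of these proteins came from a list of 57 genes, of which Il12b was listed at 0, 5 had a mean below 10 and 51 were counted. Of the 51, 31 were on the positive side and 20 on the negative, against 50.5% positive among genes whose mean was at least 10. The median log2 fold change of the 51 was 0.02, and 0 passed 0.05 by the deposited adjusted p. At an unadjusted p below 0.05 there were 3, all positive, against 0.412% of genes whose mean was at least 10. The first was Il17a, whose mRNA TTP and HuR are known to bind, at 0.70 ± 0.15 and a mean of 1756 per the authors' deposited table (adjusted p = 0.0709, DESeq2). Il17f lay at 1.11 ± 0.53 per the authors' deposited table. The third was Furin, a protease gene and named after its value was seen, at 0.18 ± 0.09 with a mean of 11047 and an unadjusted p of 0.0494 per the authors' deposited table. Among targets with a mean of at least 50 the lowest were Il4 at -0.27 ± 0.36 and Il13, both cytokines of Th2 cells, per the authors' deposited table. Ptgs2, the cyclooxygenase-2 gene, had a mean of 47.6 and lay lower at -0.39 ± 0.65 per the authors' deposited table. The list was drawn up with earlier results on the cytokine genes known, so its count is no independent evidence.

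Further targets were named as examples after their values were seen. Tnf, the textbook TTP target, lay at 0.09 ± 0.15 with a mean of 1096 per the authors' deposited table. The mRNAs cut by Regnase-1, Icos and Rel, lay at 0.01 ± 0.12 and -0.05 ± 0.13, and Il2 at -0.15 ± 0.24, Ifng at -0.21 ± 0.19 and Ier3 at 0.25 ± 0.32, per the authors' deposited table. Tnfrsf4, which encodes the Roquin target OX40, lay at 0.05 ± 0.09 per the authors' deposited table. Stat3, stabilized by Arid5a, lay at 0.01 ± 0.09 with a mean of 9671 per the authors' deposited table. Il6 itself had a mean of only 9.20 per the authors' deposited table, too low to resolve a change (SE 1.39). Of the 51 targets, 17 held the nonamer, with a median log2 fold change of 0.01, against 0.02 for the 34 without it.

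Upstream regulators include the paracaspase MALT1, which cleaves Regnase-1 and Roquins, and the kinases that inactivate TTP or mark Regnase-1 for degradation. All 22 of these genes had a mean of at least 10, and 16 were positive, against 50.5% of all genes at that minimum mean. The other 6 were negative, the median was 0.03, and 0 passed. Malt1 lay at 0.03 ± 0.10 and Mapkapk2, the kinase gene for TTP, at 0.05 ± 0.09 per the authors' deposited table. At a mean of at least 50 the highest were Bcl10 at 0.17 ± 0.19, a MALT1 partner, and the NF-κB subunit gene Rela at 0.14 ± 0.13, per the authors' deposited table. The lowest were Tbk1 at -0.10 ± 0.16 and Usp7 at -0.09 ± 0.10 per the authors' deposited table.

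Of the deadenylation genes, 10 of 20 were positive, with a median of 0.01, and 0 passed. The scaffold gene Cnot1 lay at -0.04 ± 0.09 with a mean of 7767 per the authors' deposited table. The highest were 2 antiproliferative CCR4-NOT adaptors, Tob1 at 0.22 ± 0.22 and Btg2 at 0.19 ± 0.16, and the lowest were Pabpc4 at -0.12 ± 0.11 and Cnot10 at -0.11 ± 0.15, per the authors' deposited table. Decapping and 5′ decay genes were positive in 7 of 18 (median -0.01), with 0 past the threshold. Among all genes with a mean of at least 10, 50.5% were positive. The decapping enzyme gene Dcp2 lay at -0.15 ± 0.15 and Dcp1b at -0.25 ± 0.38, while Lsm6 and Lsm4, of the ring that binds decaying tails, lay at 0.08 ± 0.18 and 0.06 ± 0.15, per the authors' deposited table.

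Exosome genes encode the complex that degrades RNA from its 3′ end. Of the 19 genes in this group Exosc6 was listed at 0. The others were positive in 4 and negative in 14 of 18, with a median of -0.08 and 0 past the threshold, against 49.5% negative among genes whose mean was at least 10. The nuclease gene Dis3 was lowest at -0.20 ± 0.13, followed by Exosc8 at -0.14 ± 0.17, per the authors' deposited table. On the other side were the ribosome rescue gene Pelo at 0.30 ± 0.36 and the nuclease gene Dis3l2 at 0.10 ± 0.22 per the authors' deposited table.

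Relatives and partners of the regulators were negative in 7 of the 8 with a mean of at least 10, against 49.5% of all genes at that minimum mean. Their median was -0.08, with 0 past the threshold. They included Nufip2, a Roquin cofactor, at -0.08 ± 0.11 and the Regnase-1 partner Upf1 at -0.06 ± 0.11 per the authors' deposited table. Lowest were Zc3h12b at -0.24 ± 0.58 and Fubp3, a relative of KSRP, at -0.15 ± 0.15, and highest were Arid5b at 0.04 ± 0.13 and Zc3h12c at -0.03 ± 0.18, per the authors' deposited table. Zfp36l3 and Elavl4 were listed at 0, and Elavl2 and Elavl3 had means below 10. Other 3′ UTR binding proteins were negative in 27 of 35 (median -0.04), against 49.5% of all genes at that minimum mean, and 0 passed. Ncl, which encodes nucleolin, was the only one of the 35 with an unadjusted p below 0.05 (0.412% of all genes at that minimum mean), at -0.21 ± 0.10 with a mean of 35136 per the authors' deposited table. Among members with a mean of at least 50, Ncl and Hnrnpdl (-0.19 ± 0.11) were lowest, and Pcbp1 and Cpeb2 were highest at 0.08 ± 0.09 and 0.06 ± 0.29, per the authors' deposited table. Below that mean, Igf2bp1 lay at -2.42 ± 1.40 and Igf2bp2 at -0.31 ± 0.85 per the authors' deposited table. The AUF1 gene Hnrnpd, an AU-element decay factor, lay at -0.07 ± 0.11 per the authors' deposited table.

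**Figure D4:**
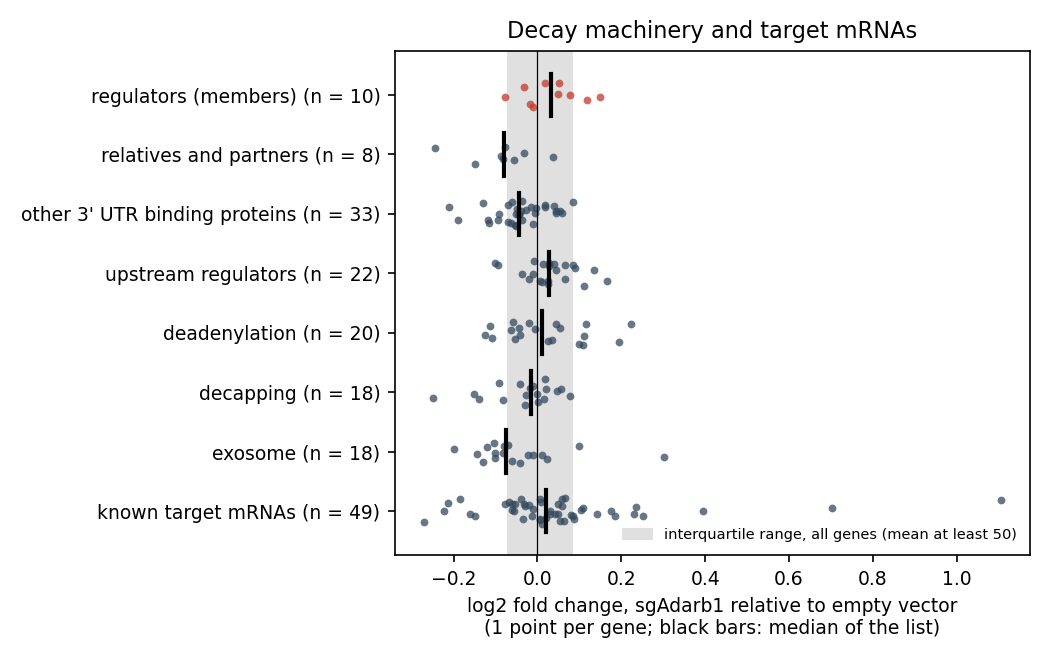
Log2 fold changes per the authors' deposited table for the 10 regulators and for the members of 7 related gene lists with a mean of at least 50, 1 point per gene, with black bars for medians and a grey band for the interquartile range of all genes with such a mean. The list medians run from -0.08 to 0.03, and Il17f and Il17a are the points farthest to the right.

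Adarb1 mRNA lay at 0.11 ± 0.12 and Adar, the ADAR1 gene, at -0.03 ± 0.11 per the authors' deposited table. Since cutting by Cas9 need not lower a transcript's level, Adarb1 mRNA does not check the labels. For a regulator to pass alone at its deposited SE, its log2 fold change would have had to reach 0.45 for Khsrp and 1.00 for Zc3h12a, the ends of the range over the 10 genes. Changes in protein amount, in editing or in mRNA half-life were not measured here.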

How the data were processed

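RNA sequencing of 4 cultures was available as 1 deposited table. STAR 2.6.1a, featureCounts, DESeq2 1.18.1 and mm10 are named in the submitters' processing notes. Not given in the sources used here are the model formula, any donor term, the strand setting and the annotation. Per the file headers the authors deposited a mean signal (mean of size-factor-normalized counts), a log2 fold change with its SE, a Wald score, a p-value and an adjusted p. The score was fold change over SE, and the authors' adjustment was recomputed as Benjamini-Hochberg over 29383 genes. A further 4 columns of values per library match no label and were not used, so depth per sample is unknown here, the planned edgeR fit and its alternatives were not run, and the authors' test was used.

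All 55450 identifiers matched GENCODE M21 (mm10), which gave symbols, positions and transcript sequences. Intervals are 95% normal intervals. Lists count genes with a mean of at least 10. All regulators were named, with the 2 highest and 2 lowest genes of each other list at a mean of at least 50, Adarb1, Adar and Il17a. Further list genes were named after their values were seen. Members and lists were chosen with earlier results of these data known. Work was done in Python 3.11.15 with pandas 2.3.3, numpy 2.4.6 and scipy 1.17.1, and functions were tested on simulated data.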

Additional observations from a re-analysis of the deposited data

How the results depend on the processing

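For the 10 regulators, 5 alternative settings gave 50 values, of which 48 kept their direction and stayed above the threshold. The exceptions were Rc3h1 (0.048) and Khsrp (-0.0021), whose signs turned with the GC and length trend removed, at an adjusted p no lower than 0.847 under any setting. Without that trend, values moved by over 1.5 times without a change of sign for Rc3h2 (0.096), Zc3h12a (0.023), Arid5a (-0.043), Zfp36l2 (-0.068) and Elavl1 (-0.049), all by less than their SE. Restricting the adjustment to means from 10 or from 50, or scaling the Wald statistic, cannot change a direction. Outside the regulators, the target Il17a fell below an adjusted p of 0.05 with either restriction. In all, 3 of 14547 genes did so at means from 10, the mast cell gene Cpa3 among them, and 2 of 10680 at means from 50. No regulator passed at an adjusted p of 0.1 or an unadjusted p of 0.05. Their median was 0.03 with the trend removed and 0.03 after centring. With the trend removed, a setting chosen for these lists after the data were seen, the 7 other lists had medians of -0.05 (relatives and partners), -0.02 (other binding proteins), 0.02 (upstream), 0.03 (deadenylation), -0.02 (decapping), -0.09 (exosome) and 0.02 (targets). No paired analysis was possible because no library in the table could be tied to a donor or group. Hence edgeR and DESeq2 fits, other filters on counts and omission of a culture were not run. The deposited SE sets what was detectable.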

Other observations

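Genes whose longest 3′ UTR holds the nonamer TTATTTATT were compared across the whole table as a description, with no test. Among protein-coding genes with a mean of at least 10, the median log2 fold change was 0.01 for 10903 genes without it, -0.01 for 764 genes with 1 and -0.01 for 223 genes with 2 or more. The share on the positive side was 53.1%, 46.5% and 47.1%. The 3′ UTR length and GC content moved with these classes, at median lengths of 1103, 2200.5 and 2745 bases and median transcript GC of 49.9%, 46.9% and 46.3%. The trend on GC content and full transcript length was then removed, a setting chosen after the data were seen. The medians became 0.00, 0.01 and 0.01, and the class without the nonamer was no longer the highest. The 3′ UTR length itself was not removed.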
